A study of Mus musculus with 4 samples.

Results

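Penk and Oprm1 were the genes of the opioid system among the 383 genes counted by multiplexed error-robust fluorescence in situ hybridisation (MERFISH) in bilateral coronal sections of mouse striatum, and the 2 genes were followed here through every cell class of 4 sections. MERFISH reads single RNA molecules by repeated rounds of imaging and assigns each to a segmented cell, so every value below is a number of decoded transcripts. The 4 sections, 10 µm thick and cut from unfixed frozen brain, were 2 labelled Young at 2 months (Young 1 and Young 2) and 2 labelled Aged at 18 months (Aged 1 and Aged 2). The study's animals were wild-type C57BL/6NTac mice, no group carried a transgene or received an agent, and its methods call the replicates biological, while the labels tie no section to an animal. P-values between ages measure the spread between the 2 sections of each age. The question behind the design was how striatal cells differ between young and aged mice.

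Penk encodes proenkephalin, the precursor from which prohormone convertases cut met- and leu-enkephalin. Enkephalins act on the delta and mu opioid receptors, and Oprm1 encodes the mu receptor, a Gi-coupled receptor that is also the main target of morphine. In the striatum the projection neurons are medium spiny neurons. Those of the indirect pathway carry the dopamine receptor Drd2 and are known for enkephalin, and those of the direct pathway carry Drd1. Mu receptor is known to be concentrated in striosomes, or patches, islands of spiny neurons set in a larger matrix, and the matrix is marked by the calcium-binding protein Calb1. Penk lies on chromosome 4 from 4133531 to 4138819 on the minus strand, and Oprm1 on chromosome 10 from 6758506 to 7038198 on the plus strand, in the GENCODE vM21 annotation of GRCm38. The deposited tables name genes by symbol only, so the probed exons are not known here. The number of probes per gene is not known either, and levels of Penk are therefore not set against levels of Oprm1.

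After cells with under 10 genes or under 50 µm³ were removed, 68011 cells of Young 1, 70774 of Young 2, 68415 of Aged 1 and 74624 of Aged 2 remained. Their median was 400, 325, 215 and 293 transcripts per cell in that order, so Aged 1 was the shallowest section. Values are therefore given per 10000 transcripts of the same cells unless a unit is named. In the striatum 3276, 2632, 2268 and 2389 cells were D1-like, which means spiny neuron-like cells with at least 3 Drd1 transcripts and over 2 times as many Drd1 as Drd2. D2-like cells, defined the mirrored way, numbered 2590, 2173, 1799 and 2136. Cells with markers of several classes were left out of these numbers, a step the study's methods name without its rule, and they were 34.7% to 47.6% of the D1-like cells before that step. The labels D1-like and D2-like were checked on Gpr6, a receptor gene known from indirect-pathway neurons that took no part in the rule: it stood at 18.5, 14.4, 11.3 and 13.7 per 10000 in D2-like cells and at 4.46, 2.56, 2.40 and 2.33 in D1-like cells.

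Penk was a gene of D2-like cells in all 4 sections. Its level in D2-like cells was 659 per 10000 transcripts in Young 1, 613 in Young 2, 619 in Aged 1 and 603 in Aged 2. The level in D1-like cells was 55.7, 43.6, 62.6 and 42.7 in the same order, so the lowest D2-like section lay far above the highest D1-like section. With the section as a block, Penk was 13.0-fold higher in D2-like cells, a log2 difference of 3.70 ± 0.05 (SE, n = 4 sections, edgeR's quasi-likelihood test, adjusted p = 1.01e-28). This was the second highest log2 difference of 383 genes tested, after Drd2 itself, on which the types were defined, and ahead of Gpr6 at 2.39 ± 0.06. Of the 7 astrocyte markers 4, among them Gja1, Plpp3 and Sox9, were also higher in D2-like cells, with a summed level of 27.9 to 36.8 per 10000 against 25.8 to 35.0 in D1-like cells and none at 0, and their part in the Penk difference was not tested. In the same test 194 genes, or 50.7% of those tested, differed between the types, 100 higher and 94 lower (26.1% and 24.5%), so passing it was common. After Drd2, Penk and Gpr6 the highest were Igkc (2.33) and Ms4a7 (2.13), and among the lowest were Drd1 (-4.55), the microtubule regulator Stmn2 (-1.69), Fxyd5 (-1.68) and Il7 (-0.84). Of the 8 genes of a peptide and signalling list, Rgs9 and Gng3 were higher in D2-like cells, Scg2 (-0.48), Vgf (-0.30), Sst (-0.31) and Rgs4 (-0.10) were lower and 2 did not pass, with a median of -0.16 against -0.00 over all genes. With cell volume in place of transcript totals as the library size, 52 genes were higher and 199 lower, and Penk kept its direction. D2-like cells also held fewer transcripts in all, and the part of this in the shift was not tested.

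The count in single D2-like cells was high and broad. Their median was 31 Penk transcripts per cell in Young 1, 25 in Young 2, 18 in Aged 1 and 22 in Aged 2, and 97.8% to 98.5% of D2-like cells held at least 1. The median D1-like cell held none, although 42.4% to 49.6% of D1-like cells held at least 1. When each cell was thinned to 100 transcripts to take out depth, 94.98% to 96.8% of D2-like cells and 20.3% to 26.4% of D1-like cells held a Penk transcript. Astrocyte-like cells, which serve here as a class not known for Penk at this level, held it in 2.31% to 2.47% after thinning and in 2.85% to 4.14% before, with medians of 95 to 126 transcripts per cell against 391.5 to 592 in D1-like cells. Most of those astrocyte-like cells lay outside the striatum. Inside its outline 11.3%, 8.85%, 10.7% and 8.74% of astrocyte-like cells and 17.4% to 31.1% of OPC-like cells held a Penk transcript, without thinning and at medians of 85 to 113 transcripts. The thinned share of D1-like cells lay above the unthinned share of striatal astrocyte-like cells and overlapped the unthinned share of striatal OPC-like cells. These measures are unlike, since thinning left out cells under 100 transcripts and was not run for striatal glia alone.

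Penk followed the balance of the dopamine receptors, and was higher in each further bin of Drd2 share in all 4 sections. Among spiny neuron-like cells with at least 5 receptor transcripts, Penk was 34.8 to 53.2 per 10000 where Drd2 made up 0 to 5% of Drd1 and Drd2 together, and 622 to 677 where it made up 95 to 100%. Cells with a Drd2 share of 40 to 60% had 267, 248, 318 and 233 per 10000, between the ends in each section. The same was seen in the cells set aside for carrying both receptors, which had 265, 250.1, 285 and 232. Cells in which a spiny neuron-like profile came with too few transcripts of either receptor had 208, 206, 240.1 and 203; their median depth was only 123 to 138 transcripts, so they could not be typed. Whether cells with both receptors were single neurons or neighbours joined by segmentation was not tested.

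**Figure D1:**
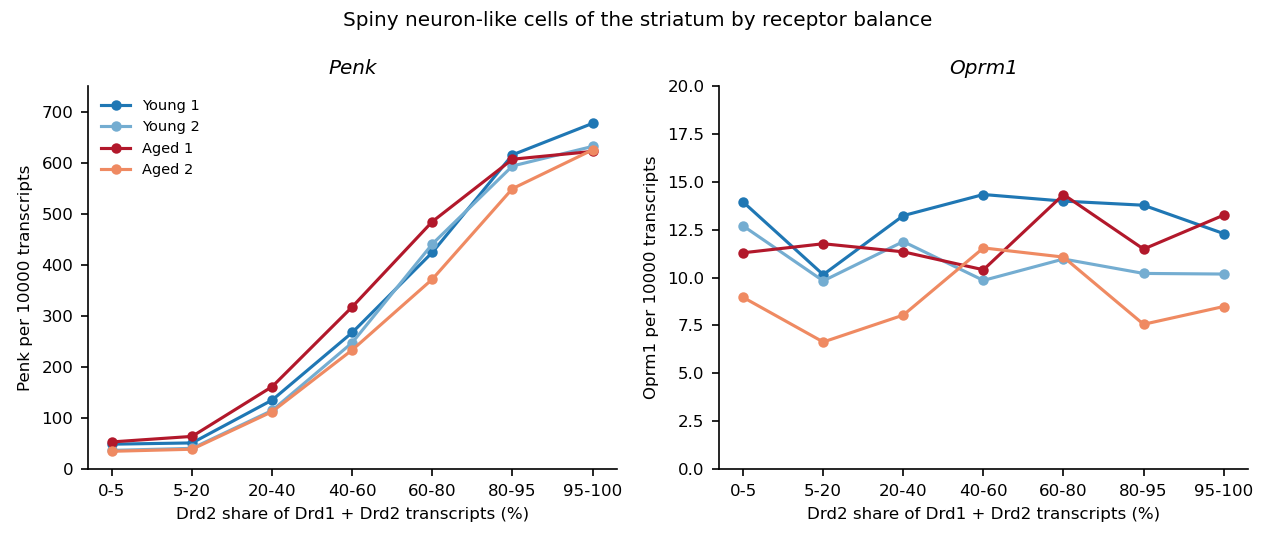
Penk (left) and Oprm1 (right) transcripts per 10000 transcripts against the Drd2 share of Drd1 plus Drd2 transcripts, in percent, in spiny neuron-like cells of the striatum with at least 5 receptor transcripts. Each line is a section. Penk rose from between 34.8 and 53.2 to between 622 and 677 across the bins, while Oprm1 stayed between 6.64 and 14.3.

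Oprm1 was at a like level in both spiny types. It stood at 13.6, 12.1, 12.6 and 8.73 per 10000 in D1-like cells and at 12.8, 10.7, 13.6 and 8.91 in D2-like cells, and the ranges overlapped. The log2 difference, D2-like over D1-like, was 0.04 ± 0.05 (SE, n = 4 sections, edgeR's quasi-likelihood test, adjusted p = 0.46). Its direction depended on the setting: it was -0.14 with cell volume as library size and -0.18 in the dorsal part of the striatum, both past the threshold, and 0.14 with finer clusters, also past it. Oprm1 counts in single cells were low. At least 1 transcript was found in 44.0%, 36.9%, 30.1% and 28.0% of D1-like cells and in 39.9%, 33.1%, 32.1% and 27.5% of D2-like cells. After thinning these shares were 8.45% to 12.4% and 7.24% to 11.98%, against 0.697% to 1.38% in vascular-like cells, which served as the background class for this gene and had medians of 92 to 117 transcripts.

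Outside the spiny neurons the order of the levels differed for the ligand gene and the receptor gene. For Penk, cells like oligodendrocyte precursors (OPC) came next at 24.0, 32.8, 33.5 and 30.9 per 10000. Below them were GABA neuron-like cells at 12.9 to 19.1 and Sst neuron-like cells at 9.47 to 18.6, which overlapped. Microglia-like cells (4.84 to 14.5), vascular-like cells (5.75 to 8.11) and the remaining neurons without GABA markers (5.86 to 7.02) overlapped one another. In Aged 1 microglia-like cells (14.5) lay above GABA neuron-like (12.9) and Sst neuron-like cells (9.47). Oligodendrocyte-like cells (2.79 to 5.11) and astrocyte-like cells (2.55 to 3.93) were lowest within each section and also overlapped. For Oprm1, Sst neuron-like cells stood at 11.9, 17.8, 13.6 and 14.0. They lay above both D1-like and D2-like cells in Young 2 and Aged 2, below both in Young 1 and between them in Aged 1. GABA neuron-like cells at 9.11 to 10.4 overlapped the lower end of the range of D1-like and D2-like cells, and the remaining neurons lay at 3.56 to 4.55. OPC-like cells (3.63 to 4.59) overlapped those neurons. Oligodendrocyte-like cells were at 1.85 to 2.98, and microglia-like, astrocyte-like and vascular-like cells overlapped between 0.902 and 1.80. The cells that could not be typed had 13.3 to 18.2 Oprm1 per 10000, at or above the D1-like level of each section.

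**Figure D2:**
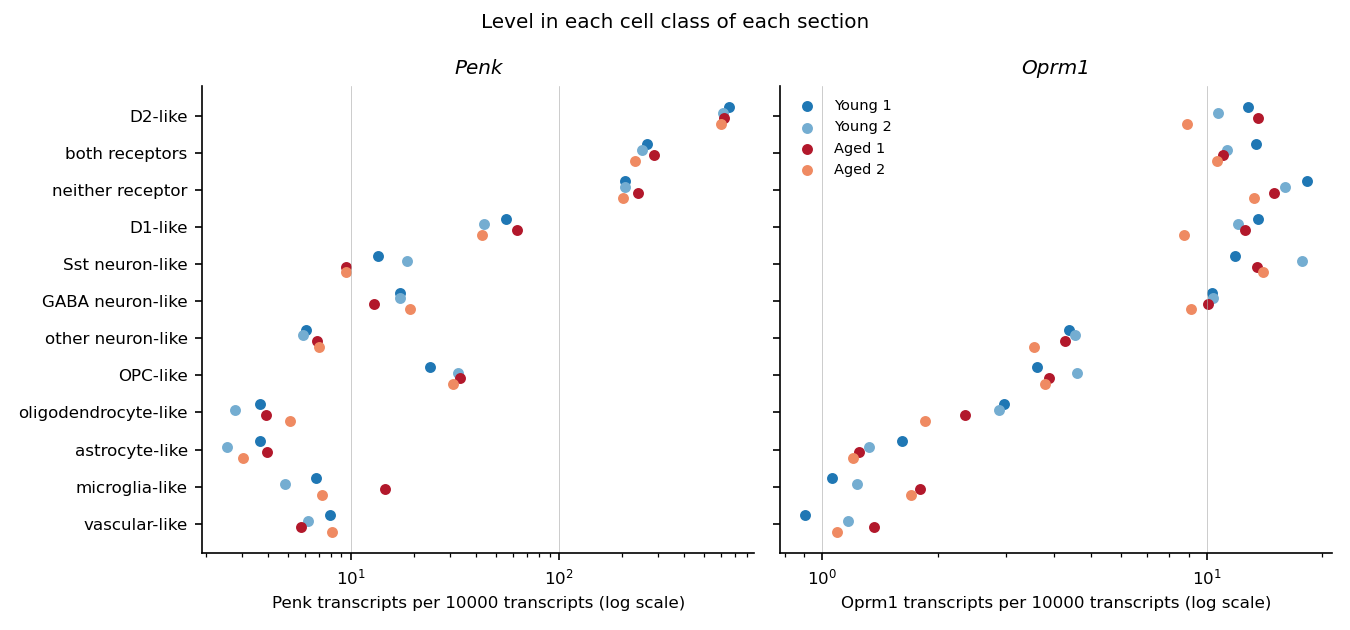
Penk (left) and Oprm1 (right) transcripts per 10000 transcripts on a log scale, by cell class (rows), with a point for each of the 4 sections. Penk in D2-like cells (603 to 659) lay above all other classes; Oprm1 was 8.73 to 18.2 in the spiny, Sst and GABA neuron-like classes and 0.902 to 4.59 in the glial and vascular classes.

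Glial Penk depended on where the cell lay. Astrocyte-like cells inside the striatal outline had 9.42, 8.56, 14.9 and 9.12 Penk per 10000, against 2.17, 1.51, 1.66 and 1.66 outside it. OPC-like cells had 48.2, 135, 56.0 and 104 inside and 15.4, 3.999, 26.3 and 10.2 outside. Oligodendrocyte-like, microglia-like and vascular-like cells were also higher inside in every section. Oprm1 showed less of this in astrocyte-like cells, which had 1.95, 1.97, 1.72 and 1.84 inside and 1.53, 1.21, 1.15 and 1.06 outside. In OPC-like cells Oprm1 was also higher inside in every section, at 5.38 to 8.44 against 2.57 to 3.51 outside. In oligodendrocyte-like, microglia-like and vascular-like cells it was higher inside in some sections and lower in others. Transcripts of neighbouring neurons that segmentation assigned to glia could move Penk in this way, and that was not tested. GABA neuron-like cells were also higher inside the outline for both genes, with Oprm1 at 17.1, 18.8, 17.5 and 14.2 inside and 8.83, 9.53, 8.81 and 8.34 outside.

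Over whole sections, D2-like cells of the striatum, which were 4.005% to 7.20% of the cells, held 60.02%, 54.1%, 44.6% and 51.1% of all Penk transcripts when cells with mixed markers were counted. Spiny neuron-like cells that could not be typed held a further 3.80%, 5.80%, 17.7% and 7.73%, the most in Aged 1, the shallowest section. Those outside the outline of the striatum held 12.2%, 14.0%, 13.6% and 14.2%. Oprm1 was spread more widely. D1-like cells held 22.8%, 15.7%, 16.3% and 14.6% of its transcripts and D2-like cells 15.3%, 9.46%, 11.2% and 10.1%, while the neurons without GABA markers held 12.6%, 18.0%, 16.6% and 15.3%.

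Across the 12 classes in 4 sections (48 values on the log2 scale with 0.1 added), the genes with a pattern most like Penk included Drd2 (Pearson r = 0.94), the phosphodiesterase Pde10a (0.94), Rgs9, which speeds the turn-off of G proteins (0.92), and the sodium channel subunit Scn4b (0.91), all known from spiny neurons. Those most like Oprm1 were the granin Scg2 (0.91), the calcium channel subunit Cacna2d3 (0.90), Spock3 (0.89), St8sia3 (0.89) and Nsg2 (0.89). Penk and Oprm1 correlated with each other at 0.72 over the same values. These values share sections and classes and are a description.

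Oprm1 was patchy within the striatum. The local Oprm1 level of D1-like cells, smoothed with a Gaussian of 40 µm SD on squares of 50 µm, had a median of 9.9997 per 10000 in Young 1, 7.87 in Young 2, 8.45 in Aged 1 and 5.70 in Aged 2. The highest 15% of squares were called Oprm1-rich areas. Their lowest level was 25.1, 23.9, 26.0 and 17.7, and the next squares outside followed directly (25.13 inside and 25.12 outside in Young 1), as a cut by rank fixes. They formed 62, 76, 50 and 56 separate areas, the largest of 0.430, 0.383, 0.310 and 0.292 mm². Of these areas 33, 33, 22 and 33 held at least 4 squares. Inside the areas as a whole D1-like cells had 47.0, 45.7, 50.6 and 36.9 Oprm1 per 10000, against 8.63, 6.76, 6.91 and 4.68 outside, a contrast fixed by the way the areas were drawn and therefore not tested.

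**Figure D3:**
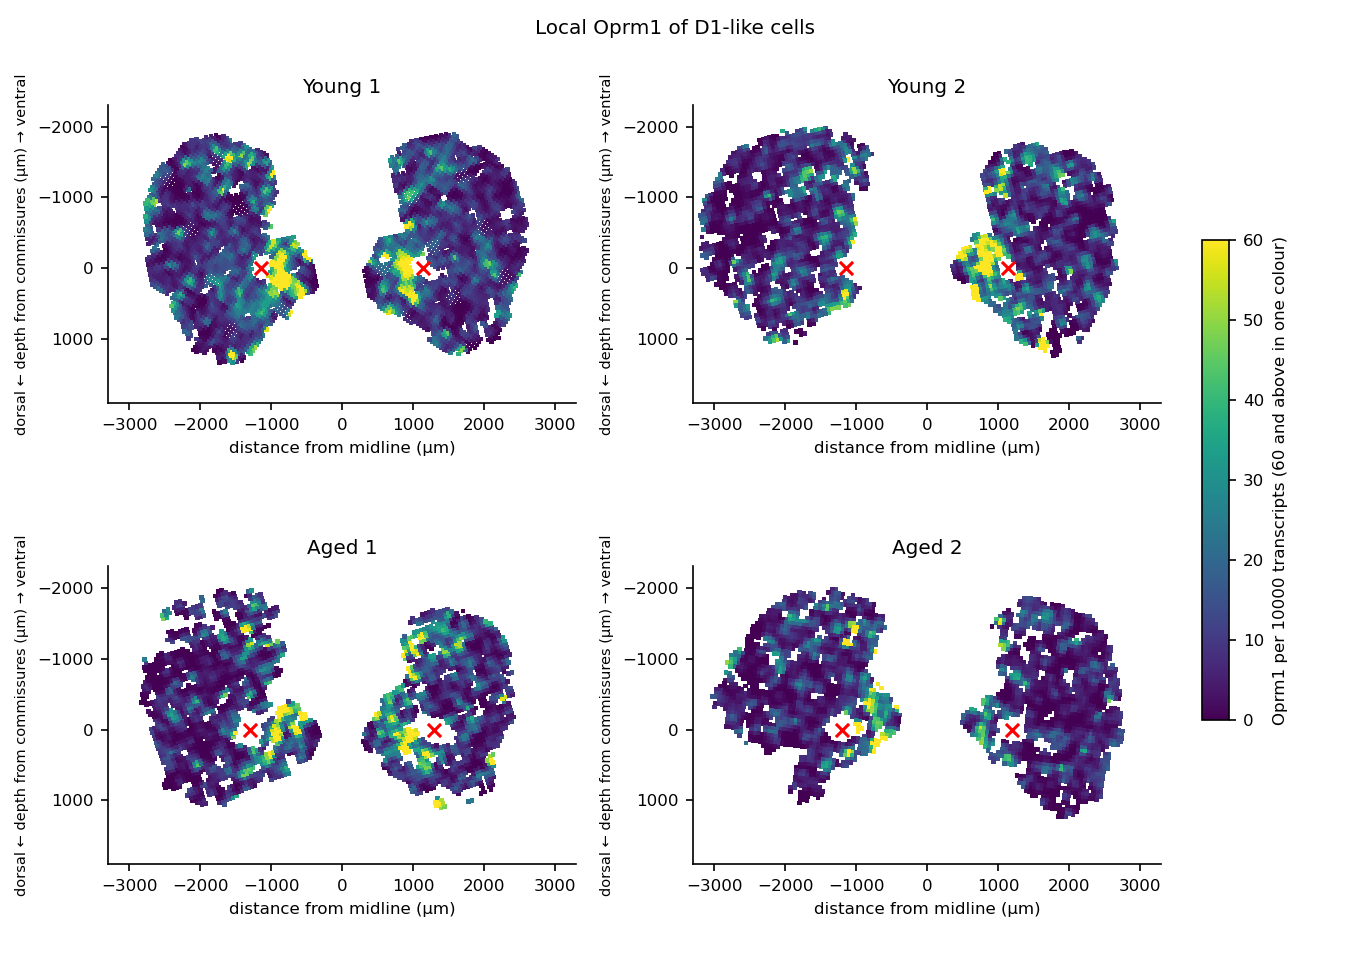
Local Oprm1 level of D1-like cells in the striatum of the 4 sections, as transcripts per 10000 transcripts in colour (60 and above share a colour), by distance from the midline and by depth from the line between the anterior commissures (crosses), both in µm with ventral downwards. High values formed scattered spots in all sections, with the largest continuous ones beside and medial of the commissures.

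D2-like cells took no part in drawing the areas and served as the test. Inside them D2-like cells had 21.9, 17.2, 23.3 and 12.02 Oprm1 per 10000, and outside them 11.7, 9.63, 12.1 and 8.69. The inside value was higher within each section, by the smallest margin in Aged 2. Over the sections this was 1.67-fold, a log2 difference of 0.74 ± 0.09 (SE, n = 4, edgeR's quasi-likelihood test with the section as a block, adjusted p = 1.06e-12). Of 377 genes tested 89 differed (23.6%), 48 higher inside (12.7%) and 41 lower (10.9%), and Oprm1 ranked 10th from the top by log2 difference. With the roles turned, areas drawn from D2-like cells and read in D1-like cells gave 24.1, 20.7, 22.0 and 11.9 inside and 11.1, 9.82, 10.8 and 7.02 outside. Cell by cell the shared pattern was weak. Oprm1 of D2-like cells correlated with the local Oprm1 of D1-like cells at 0.20, 0.19, 0.16 and 0.071 (Pearson r). Among 383 genes these values ranked 49, 42, 64 and 109. Calb1 reached 0.44, 0.45, 0.42 and 0.35, and Id4 0.53, 0.53, 0.41 and 0.44. The median distance from a D1-like cell to the nearest D2-like cell, mixed cells counted, was 22.3, 24.7, 27.4 and 23.1 µm. The part of Oprm1 transcripts assigned from neighbouring D1-like cells in these values was not tested, nor was it in the readings by distance that follow.

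Oprm1 of D2-like cells was also read by distance from single D1-like cells. D2-like cells within 50 µm of a D1-like cell with 3 or more Oprm1 transcripts had 1.90, 1.98, 1.71 and 1.19 times the Oprm1 of those within 50 µm of a D1-like cell with none. From 100 to 150 µm the ratio was 1.62, 1.60, 1.52 and 1.37, and from 600 to 800 µm 1.10, 1.302, 1.17 and 1.13. In Aged 2 it did not decline over the first bins, and only 102 of its D1-like cells held 3 or more transcripts. In the dorsal part alone the ratio was 1.47, 1.90, 1.44 and 1.32 within 50 µm and 1.17, 1.43, 1.10 and 1.37 from 100 to 150 µm, where it was lower than over the whole striatum in Young 1, Young 2 and Aged 1. The areas were unevenly placed. Of the D1-like cells inside them 45.6%, 25.9%, 43.0% and 34.9% lay ventral and medial of the commissure, against 9.73%, 4.18%, 17.8% and 5.70% of those outside. When areas were drawn and read within the dorsal part only, D2-like cells had 11.7, 11.6, 18.0 and 9.85 Oprm1 inside and 8.75, 6.999, 9.69 and 8.05 outside, a log2 difference of 0.49 ± 0.11 (edgeR, adjusted p = 0.0050).

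Other genes were read in the same D2-like cells to describe the areas. The matrix list, Calb1 and the helix-loop-helix inhibitor Id4, was lower inside for both of its 2 genes (median log2 -0.53, against -0.04 over all genes tested): Calb1 differed by -0.27 ± 0.06 and Id4 by -0.79 ± 0.06. That list was chosen with earlier results of these data known, so it is a description and not independent support. The 5 genes with the highest log2 difference were Scg2 (1.28), the metalloprotease Mmp2 (1.22, at under 1 transcript per 10000), the GABA transporter Slc6a11 (1.12), the imprinted gene Nnat (1.09) and the immediate early gene Jun (1.01), and the 5 lowest among the genes that passed were Ddit4l (-1.15), Ahnak (-0.94), Id4, Igkc (-0.73) and the G protein regulator Rgs4 (-0.71). In the peptide and signalling list Scg2 and Vgf (0.92 ± 0.14), both made in peptide-releasing neurons, were higher, Rgs4 and Rgs9 (-0.46 ± 0.05) were lower, and 4, among them the enkephalin-processing protease Pcsk2 (-0.07 ± 0.06), did not pass (median log2 -0.07).

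Markers of other classes moved in part with the areas. Astrocyte-like cells were 8.68%, 9.65%, 7.32% and 7.97% of the cells inside and 5.59%, 5.95%, 5.58% and 5.82% outside. Slc6a11 was the single gene of the 7 on the astrocyte list that passed in D2-like cells. The summed level of that list in those cells was 31.2 to 39.9 per 10000 inside and 27.3 to 35.1 outside, with none of its genes at 0. Of 4 neuroblast genes, Dcx and Sox11 were higher and Ccnd2 lower. The spiny neuron list was lower for 3 of its 7 genes, Scn4b (-0.68 ± 0.06), Rgs9 and Pde10a (-0.44 ± 0.05), and its summed level was 1237 to 1384 per 10000 inside and 1496 to 1702 outside. Higher inside were 2 of 3 GABA neuron genes, Gad2 (0.41 ± 0.06) and Dlx6os1 (0.37 ± 0.07), 3 of 6 general neuron genes, among them Syp (0.60 ± 0.07), 1 of 6 oligodendrocyte genes, Tspan2 (0.61 ± 0.18), and 1 of 4 OPC genes, Gpr17 (0.87 ± 0.27). The part of these shifts in the differences of Oprm1 and Penk was not tested. The areas lay more ventrally, with 67.4%, 58.9%, 62.6% and 49.6% of the cells inside in the ventral part, against 49.4%, 44.7%, 54.1% and 46.3% outside. Ventral over dorsal, D2-like cells also had higher Scg2, Slc6a11, Dcx, Sox11, Syp, Gad2 and Tspan2 and lower Rgs4, Rgs9, Scn4b, Pde10a and Ccnd2. Calb1 and Id4 were higher ventrally, the other way, and Vgf, Dlx6os1 and Gpr17 did not pass. These genes were not read within the dorsal part alone.

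Penk ran the other way in D2-like cells of the areas. It was 529, 544, 513 and 540.0 per 10000 inside and 677, 626, 641 and 620.0 outside, and the ranges did not overlap. The log2 difference was -0.33 ± 0.05 (SE, n = 4, edgeR's quasi-likelihood test, adjusted p = 7.46e-09), or 1.26-fold lower inside, a smaller difference than those of the spiny neuron genes Scn4b, Rgs9 and Pde10a in the same cells. Within the dorsal part Penk was 521, 549, 511 and 575 inside and 664, 627, 589 and 613 outside. In areas drawn from the Oprm1 of the D2-like cells themselves there was no such difference to see, with 643, 627, 626 and 588 inside and 662, 611, 617 and 605 outside; those cells chose the areas, so this was not tested. In D1-like cells Penk was 73.0, 59.7, 70.5 and 45.6 inside and 53.2, 41.0, 62.0 and 42.4 outside, a log2 difference of 0.22 ± 0.07 (edgeR, adjusted p = 0.035, in a comparison where 124 of 382 genes, or 32.5%, passed). The D1-like cells drew the areas through another gene, so this test is not independent of them. That call was lost within the dorsal part (0.02 ± 0.07, adjusted p = 0.89), without Young 1 (0.18, adjusted p = 0.17) and without Young 2 (0.14, adjusted p = 0.21). Tested directly, the area difference of Penk was 0.62 ± 0.09 higher in D1-like than in D2-like cells on the log2 scale (edgeR, interaction term, adjusted p = 2.83e-05, with 1.58% of 380 genes passing), and it was 0.31 in the dorsal part, where it missed the threshold (adjusted p = 0.11).

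**Figure D4:**
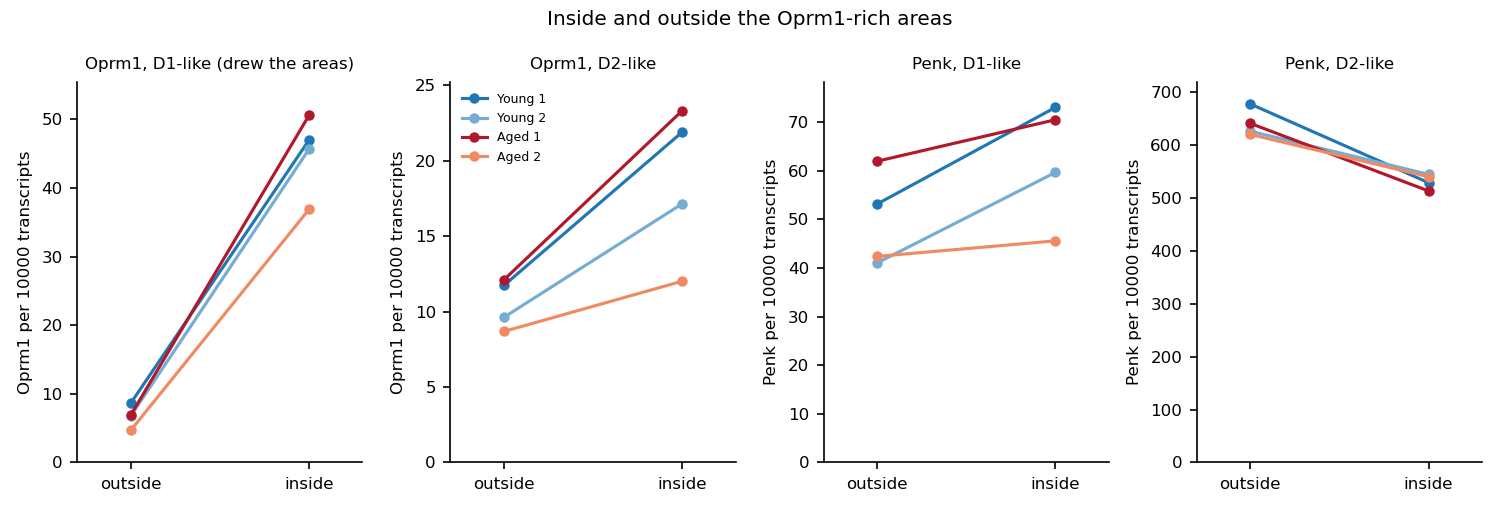
Oprm1 (left pair) and Penk (right pair) transcripts per 10000 transcripts in D1-like and D2-like cells outside and inside the Oprm1-rich areas, with a line for each section. Oprm1 of D1-like cells drew the areas and is shown as a description; in D2-like cells Oprm1 was higher inside (12.02 to 23.3, against 8.69 to 12.1) and Penk lower (513 to 544, against 620.0 to 677).

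The genes also differed along the dorsal-ventral axis, and in different cells. In D1-like cells Penk was 28.1, 25.6, 48.8 and 32.8 per 10000 dorsal of the midpoint of the striatum's depth and 80.9, 65.6, 74.1 and 54.6 ventral of it, with no overlap. Ventral over dorsal this was 1.956-fold, a log2 difference of 0.97 ± 0.11 (SE, n = 4, edgeR's quasi-likelihood test with the section as a block, adjusted p = 5.22e-06), in a comparison where 128 of 383 genes (33.4%) passed. D2-like cells had 646, 613, 564 and 607 dorsally and 674, 613, 678 and 599 ventrally, a log2 difference of 0.00 ± 0.05 (edgeR, adjusted p = 0.99, with 26% of 381 genes passing); without Aged 1 it was -0.10 and passed (adjusted p = 0.040). The ventral-over-dorsal difference of Penk was itself larger in D1-like than in D2-like cells by 0.90 ± 0.15 on the log2 scale (edgeR, interaction term, adjusted p = 0.0013, with 4.45% of 382 genes passing); without Young 2 it was 0.77 and missed the threshold (adjusted p = 0.052).

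The ventral Penk of D1-like cells was concentrated at the bottom of the striatum. In the most ventral of 5 equal depth segments D1-like cells had 169, 164, 130.2 and 117 Penk per 10000, against 24.2 to 61.1 in the other 4 segments of all sections. Lateral of the commissure the same segment had 182, 165, 164 and 118, and medial of it 64.9 in Young 1 and 60.5 in Aged 1, the sections with at least 50 such cells. In that most ventral segment 31.8%, 30.9%, 21.2% and 17.9% of D1-like cells held 10 or more Penk transcripts, against 7.42%, 4.43%, 5.91% and 4.93% in the 4 others together.

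Readings of D2 markers and of nearby D2-like cells stand beside this. Within the most ventral segment D1-like cells with 10 or more Penk transcripts held 5.75, 8.22, 4.15 and 7.40 Drd2 per 10000, and those with none held 2.54, 3.32, 3.02 and 2.33, so Drd2 was higher where Penk was. It was higher still in the Penk-rich D1-like cells of the other segments (15.2, 16.8, 12.8 and 14.6). Gpr6 did not separate the cells of the most ventral segment in the same way, at 6.13, 1.91, 1.78 and 2.64 with 10 or more Penk transcripts and 6.77, 2.27, 2.11 and 5.51 with none. From dorsal to ventral, Drd2 of all D1-like cells was lower (-0.75 ± 0.08, edgeR, adjusted p = 3.08e-06) and Gpr6 differed by 0.23 ± 0.14 (adjusted p = 0.24), while Penk was higher. All 7 spiny neuron markers were lower ventrally in D1-like cells, among them Drd1 (-0.25 ± 0.05), Pde10a (-0.82 ± 0.05) and Scn4b (-1.08 ± 0.06), and their summed level was 1647 to 1838 per 10000 dorsally and 1169 to 1314 ventrally. Higher ventrally were 2 of 4 neuroblast genes, Dcx (1.41 ± 0.08) and Sox11 (1.049 ± 0.11), and 2 of 3 GABA neuron genes, Gad2 (0.61 ± 0.08) and Dlx6os1 (0.66 ± 0.07). The part of this shift in the Penk difference was not tested.

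In the ventral part D1-like cells over 40 µm from the nearest D2-like cell had the highest Penk of the distance bins in every section, 120 in Young 1, 117 in Young 2, 114 in Aged 1 and 93.0 in Aged 2. In the dorsal part D1-like cells under 12 µm from a D2-like cell had 34.0, 42.1, 60.7 and 44.1 and those at 12 to 18 µm 26.3, 19.995, 37.5 and 28.2, so Penk was higher beside a D2-like cell in each section. D1-like Penk in the dorsal part was 4.36%, 4.17%, 8.65% and 5.40% of the D2-like level. The part of transcripts assigned from neighbouring cells in these values was not tested.

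Oprm1 rose ventrally in D2-like cells, from 9.07, 7.84, 11.2 and 8.04 per 10000 dorsally to 17.1, 14.8, 16.2 and 10.2 ventrally. Each section's ventral value was above its dorsal value, by the least in Aged 2. The log2 difference was 0.61 ± 0.09 (SE, n = 4, edgeR, adjusted p = 7.39e-08). D1-like cells had 11.4, 10.5, 11.8 and 8.28 dorsally and 15.5, 14.0, 13.2 and 9.27 ventrally, a difference of 0.21 ± 0.08 that missed the threshold (edgeR, adjusted p = 0.0501), passed without Aged 2 (0.28, adjusted p = 0.024) and was -0.02 when only cells near the dorsal and ventral ends of the axis were compared. The difference between the types was -0.47 ± 0.13 (D1-like minus D2-like, edgeR, interaction term, adjusted p = 0.043). It was lost without Young 1 (-0.44, adjusted p = 0.27), without Young 2 (-0.43, adjusted p = 0.23) and without Aged 1 (-0.45, adjusted p = 0.11).

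Within the ventral part Oprm1 lay medially. Medial of the commissure D1-like cells had 29.9, 33.3, 21.4 and 24.0 per 10000, and lateral of it 11.3, 10.8, 8.74 and 5.94. D2-like cells had 28.8, 29.6, 25.8 and 15.8 medially and 14.6, 12.9, 12.9 and 9.28 laterally. Penk of D2-like cells was 545, 559, 597 and 471 medially and 701, 619.9, 706 and 619 laterally, the reverse order, as in the Oprm1-rich areas. In D1-like cells too, Penk was lower medially, at 45.0, 53.6, 42.1 and 52.4 against 91.5, 67.5, 91.6 and 55.1, though Aged 2 differed little. The outline left out medial ventral tissue in a hemisphere of Young 2 and part of it in Aged 2, so these medial values rest on 195 D1-like cells in Young 2 and 232 in Aged 2, against 490 and 483 in Young 1 and Aged 1.

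**Figure D5:**
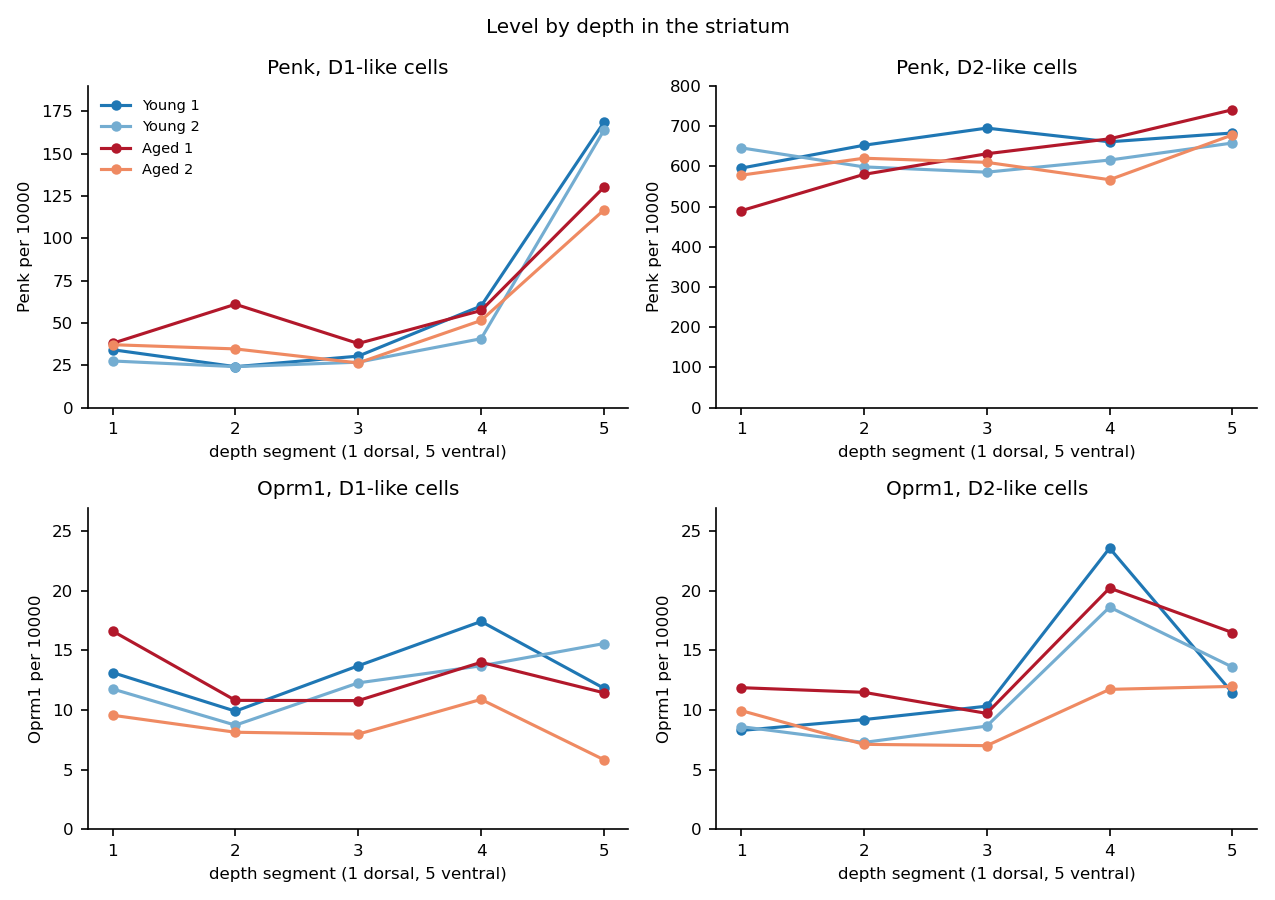
Penk (top) and Oprm1 (bottom) transcripts per 10000 transcripts in D1-like (left) and D2-like (right) cells over 5 equal depth segments of the striatum, 1 being dorsal and 5 ventral, with a line for each section. Penk of D1-like cells reached 117 to 169 in segment 5, while that of D2-like cells stayed between 489.6 and 741; Oprm1 of D2-like cells peaked in segment 4 in 3 sections, at 18.6 to 23.6.

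Between the ages neither gene passed the test in either spiny type. In D2-like cells Penk was 636 ± 32.3 per 10000 in young sections and 611 ± 11.0 in aged sections (mean ± SD, n = 2 each), a log2 difference, aged over young, of -0.06 ± 0.14 (SE, edgeR's quasi-likelihood test, adjusted p = 0.99). In D1-like cells it was 49.7 ± 8.55 and 52.7 ± 14.1, a difference of 0.12 ± 0.19 (adjusted p = 0.97). Oprm1 was 12.8 ± 1.048 and 10.6 ± 2.70 in D1-like cells (-0.24 ± 0.22, adjusted p = 0.91) and 11.7 ± 1.49 and 11.3 ± 3.33 in D2-like cells (-0.06 ± 0.23, adjusted p = 0.99). The aged sections differed from each other: Aged 2 had the lowest Oprm1 of the 4 sections in both types, and Aged 1 the highest in D2-like cells. By edgeR 0 of 383 genes (0%) passed in D1-like cells and 0 of 382 (0%) in D2-like cells, with 27 and 32 at an unadjusted p under 0.05, and DESeq2 also called 0 in both, with 21 and 27 at an unadjusted p under 0.05. All 8 genes of the peptide and signalling list were among those that did not pass in either type.

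A direction for age could not be given for most of these values. Without Aged 1 the Penk difference in D1-like cells was -0.22, and without Aged 2 it was 0.43. Oprm1 in D1-like cells was 0.06 without Aged 2, and Oprm1 in D2-like cells was 0.26 without Aged 2 and 0.05 without Young 1. Penk in D2-like cells was 0.01 without Aged 2. In the dorsal part alone D1-like Penk was higher in both aged sections (48.8 and 32.8, against 28.1 and 25.6), with a difference of 0.60 ± 0.18 that did not pass over all genes (edgeR, adjusted p = 0.16). The age difference of Penk, D2-like minus D1-like, was -0.16 ± 0.05 (edgeR, interaction term, adjusted p = 0.24, with 0.261% of 383 genes passing). The gene that passed was the histone variant H2afz (-0.61 ± 0.16, adjusted p = 0.042), named after its value was seen. The Penk difference passed with mixed cells kept (-0.31, adjusted p = 0.0067) and with finer clusters (-0.24, adjusted p = 0.000126). In the dorsal part it was -0.70 ± 0.15 (adjusted p = 0.077). It was -0.38 without Aged 2 and 0.15 without Aged 1. Each of these fits left a single aged section and cannot measure the spread between aged sections. For Oprm1 the age difference, D2-like minus D1-like, was 0.17 ± 0.09 over all sections (edgeR, interaction term, adjusted p = 0.98).

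Per cell, without scaling to the transcript total, D2-like cells held 37.4, 29.3, 22.8 and 27.4 Penk transcripts and 0.727, 0.511, 0.501 and 0.405 Oprm1 transcripts. These are lower in both aged sections, and so was the median of all transcripts in D2-like cells, at 510, 426, 338 and 422.5. Less RNA in aged cells and fewer transcripts detected in aged sections cannot be told apart here.

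Neither gene passed in the other classes tested, in 14 tests over GABA neuron-like and other neuron-like cells (0% of genes passing in both) and astrocyte-like (7.43%), oligodendrocyte-like (11.1%), OPC-like (11.8%), microglia-like (0.301%) and vascular-like cells (1.83%). These tests pooled cells inside and outside the striatal outline, and age was not tested inside it alone. Inside, Penk of oligodendrocyte-like cells was 12.9 ± 1.82 per 10000 in young and 26.8 ± 2.55 in aged sections (mean ± SD, n = 2 each). Outside it was 1.61 ± 0.815 and 1.33 ± 0.632. Penk inside was also higher in both aged sections in microglia-like cells and lower in GABA neuron-like cells. In astrocyte-like, OPC-like and vascular-like cells the ages overlapped. Sst neuron-like cells, at 150 to 177 per section, were under the minimum of 200 and were not tested. Their Penk was 13.4 and 18.6 per 10000 in the young and 9.47 and 9.50 in the aged sections. The log2 differences lay between -0.55 ± 0.33 for Oprm1 in oligodendrocyte-like cells (edgeR, adjusted p = 0.35) and 0.65 ± 0.34 for Penk in microglia-like cells (adjusted p = 0.27). The latter rested on 6.82, 4.84, 14.5 and 7.22 Penk per 10000 in the 4 sections, and it was 0.11 without Aged 1, 0.41 without Young 2, 1.07 without Aged 2 and -0.45 with mixed cells kept. A difference in the patchiness of Oprm1 between the ages could not be called with 2 sections each. The ratio of Oprm1 in D2-like cells inside over outside the areas was 1.87 in Young 1, 1.78 in Young 2, 1.93 in Aged 1 and 1.38 in Aged 2, an aged minus young difference of -0.17 (two-sided exact permutation test, p = 1, where the smallest p that 2 against 2 sections allow is 0.333). It was 0.10 without Aged 2 and 0.04 in the dorsal part. Both young ratios lay above both aged ratios, with p = 0.333 by the same exact permutation test, with mixed cells kept (-0.29), under the stricter (-0.41) and the looser receptor rule (-0.41), with finer clusters (-0.34) and with the top 10% of squares (-0.46).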

How the data were processed

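The authors imaged the sections on a Vizgen instrument, decoded transcripts with MERLIN and segmented cells, and deposited a table per section of raw counts per gene and cell, with each cell's volume as a size signal in µm³ and its position, taken here as µm. The genome build of the probe design is not given in the sources used here. Cells with at least 10 genes and 50 µm³ were kept, scaled and clustered (15 principal components, 20 neighbours, Louvain resolution 0.08; scikit-learn 1.9.0 and igraph 0.11.9 in Python 3.11.15) without Penk, Oprm1, Calb1 and Id4, and clusters were named from marker lists (at least 3 markers at 1.5-fold). Class names are thus rebuilt and may differ from the study's. No doublet caller was run, but cells with at least 3 markers of their own and 3 of another class were left out. The outline of the striatum took in squares with a spiny neuron-like share of 0.4 or more in a 150 µm radius, and its depth axis was set from the anterior commissures.

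Counts were summed per section and class and tested with edgeR 4.0.16 (R 4.3.3; TMM, quasi-likelihood test, Benjamini-Hochberg over all panel genes, threshold 0.05), with the section as a block in comparisons within sections; DESeq2 1.42.0 was an alternative. The tests were checked on simulated data. An SE is the log2 difference over the square root of F. Decoded transcripts are counted molecules, and kept cells totalled 18765491 to 36035355 transcripts per section. Named genes were the members, the fixed lists, the 5 highest and 5 lowest genes that passed, and the 5 genes most like each member; a few genes that this rule names are not reported here. Members and lists were chosen with earlier results of these data known.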

Additional observations from a re-analysis of the deposited data

Results flagged for a closer look

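In 3 cases the difference itself, between D1-like and D2-like cells, passed the test across all genes. The ventral-over-dorsal difference of Penk was larger in D1-like cells by 0.90 on the log2 scale, and that of Oprm1 was smaller in D1-like cells by a signed difference of -0.47. The inside-over-outside difference of Penk at the Oprm1-rich areas was higher in D1-like cells by 0.62. Those cells drew the areas through Oprm1, so that test is not independent of them, and it missed the threshold in the dorsal part. With 1 section left out, the ventral Oprm1 difference passed in 1 of 4 fits and the ventral Penk difference in 3 of 4. All 3 flagged differences are from the interaction term of edgeR's quasi-likelihood test over 4 sections. No group held enough sections for a search for single sections far from the rest.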

How the results depend on the processing

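The Penk difference between spiny types (log2 3.64 to 3.83), Oprm1 (0.70 to 0.83) and Penk (-0.36 to -0.29) of D2-like cells at the areas, and ventral Penk of D1-like (0.80 to 1.10) and Oprm1 of D2-like cells (0.50 to 0.71) kept direction and call without any 1 section. Over the comparisons of spiny cells, 63 of the values without 1 section and 170 of those under other settings kept both, while 9 and 10 reversed, 6 and 7 lost the call and 2 and 6 gained it. These numbers also hold the area ratio by age, judged by direction alone. They hold the number of age calls in the other classes too, judged by that number.

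Without 1 section the age differences ranged, for Penk, from -0.22 to 0.43 in D1-like and -0.094 to 0.0062 in D2-like cells and, for Oprm1, from -0.56 to 0.058 and -0.41 to 0.26. The Penk age difference between the types ranged from -0.38 to 0.15. Penk of D1-like cells at the areas ranged from 0.14 to 0.30, ventral Penk of D2-like cells from -0.097 to 0.038 and ventral Oprm1 of D1-like cells from 0.15 to 0.28. The type differences of the ventral-over-dorsal contrast ranged from 0.73 to 1.14 for Penk and -0.55 to -0.43 for Oprm1. Age differences ranged from -0.38 to 0.14 (Penk) and -0.20 to 0.00055 (Oprm1) in GABA neuron-like, -0.080 to 0.46 (Penk) in astrocyte-like, -0.12 to 0.38 (Penk) and -0.36 to 0.032 (Oprm1) in OPC-like -0.26 to 0.19 (Penk) in vascular-like and 0.11 to 1.07 (Penk) in microglia-like cells. The age difference of the area ratio ranged from -0.44 to 0.10.

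With cell volume as library size, which moved the median of all genes by -0.44 and -0.43 in the age comparisons of D1-like and D2-like cells, Penk aged over young was -0.38 in D1-like, -0.20 in other neuron-like, -0.31 in astrocyte-like, -0.12 in oligodendrocyte-like and -0.52 in OPC-like cells, Oprm1 was -0.14 in vascular-like cells, Oprm1 between spiny types was -0.14, ventral Oprm1 of D1-like cells 0.29 and its type difference -0.37. With mixed cells kept, those 3 Oprm1 values were -0.062, 0.39 and -0.22, the Penk age difference between types was -0.31 and passed, ventral Penk of D2-like cells -0.0081, and aged over young -0.042 (Penk, oligodendrocyte-like), -0.45 (Penk, microglia-like), -0.065 (Oprm1, microglia-like) and -0.11 (Oprm1, vascular-like). The looser receptor rule gave -0.00054 for Oprm1 between types, 0.32 ventrally in D1-like cells and -0.33 for its type difference, and the stricter rule -0.46 for the last. Resolution 0.3 gave Oprm1 between types as 0.14, its ventral type difference as -0.50 and the Penk age difference between types as -0.24, which passed. In the dorsal part alone, Oprm1 between types was -0.18, Oprm1 aged over young in D2-like cells 0.15, Penk of D1-like cells at the areas 0.023, its type difference 0.31 and the age difference of the area ratio 0.042. DESeq2 gave -0.0053 for ventral Penk of D2-like cells, and the ends of the axis alone -0.015 for ventral Oprm1 of D1-like cells. The cause of these changes was not tested.

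Genes passing at the areas in D2-like cells (89) became 177 with mixed cells, 49 under the stricter rule and 55 dorsally. In D1-like cells 124 became 77 without Young 1, 82 without Young 2 and 72 dorsally. The ventral type difference went from 17 to 9 at resolution 0.3, 5 without Young 1 and 9 without Young 2, and the area type difference from 6 to 3 under the stricter rule and at resolution 0.3. With volume as library size the split of higher and lower calls was 60 and 28 at the areas in D2-like cells (48 and 41 by transcripts), 80 and 42 in D1-like cells (58 and 66; DESeq2 64 and 41), and 88 and 47 ventrally in D1-like cells (69 and 59).

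Deviations of same-numbered sections from their age means correlated at -0.25 in D1-like and -0.33 in D2-like cells. With 2 sections per age, crossing the numbers gives the same value with the opposite sign. These values therefore cannot decide whether replicate numbers pair the sections. With the replicate block the age differences were 0.09 (Penk) and -0.27 (Oprm1) in D1-like and -0.06 and -0.09 in D2-like cells, with 0 genes called in both by edgeR (12 and 19 at an unadjusted p under 0.05). The crossed pairing, added after seeing the data, called 0 and 2. Oprm1 counts of under 1 transcript per spiny cell limit its precision.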
